A study of Arabidopsis thaliana with 3 samples.

Results

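The CrRLK1L receptor kinases of Arabidopsis thaliana are a family of membrane proteins named after a kinase of Catharanthus roseus. A list of 10 family genes was looked up by gene symbol or locus in the platform annotation, and a gene was kept if a probe set (the group of short oligonucleotides that reads a gene on an Affymetrix ATH1 array) was annotated to it alone. This found 9 of the 10 genes, out of 13286 genes with such a probe set, and each of the 9 had 1 probe set. They were ANX1, ANX2, BUPS1 (AT4G39110), BUPS2 (AT2G21480), FER (AT3G51550), THE1 (AT5G54380), AT5G24010, AT5G59700 and AT2G23200. ERU (AT5G61350), a kinase of root hair growth, was not analysed here.

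CrRLK1L proteins carry malectin-like domains outside the cell and a kinase domain inside it, and they are known as sensors of the cell wall at the surface of growing cells. They bind small secreted RALF peptides, in part together with wall-bound leucine-rich repeat extensins, and signal through cytoplasmic kinases, ROP GTPases, calcium and reactive oxygen. In the pollen tube, the cell that carries the sperm to the ovule by tip growth, ANX and BUPS receptors keep the wall from bursting before arrival. In vegetative tissue FER acts in cell growth, in root hairs and in immunity, and on the female side it acts in the reception of the tube.

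Total RNA of 2 germinating pollen samples and 1 seedling sample, all of the accession Col-0 with no mutant or transgene named, was read on 1 array each. Pollen shed from open flowers was left for 6 h at 25°C in the dark on a medium with 13.5% sucrose, calcium chloride, boric acid, potassium chloride, myo-inositol and agarose, and the labels put the germination rate near 80%. The seedlings were taken whole, with roots and young rosette leaves, from Murashige-Skoog plates with sucrose. Light was given at 22°C and darkness at 18°C; the seedling label gives 18 h of light and 6 h of dark, the design text 16 h and 8 h, and the conflict was not settled. The labels do not name separate plants as the source of each pollen array, and the design text calls them a duplicated hybridisation. The p-values given here thus rest on the spread between 2 pollen arrays, and that spread may be technical. For each gene the test also draws on that spread over all tested probe sets. A small p-value therefore does not come from a gene's own pair of pollen signals alone.

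The values are MAS5 signals, linear intensities in arbitrary units that were already scaled to a common level per array. A signal of 42.3, the median over all probe sets and arrays, served as the floor. Control probe sets without a target in plant RNA reached 47.1 on pollen array 1, 65.7 on pollen array 2 and 14.3 in seedlings, so values under about 65.7 in pollen are not told apart from background. Marker lists were set beside the tissue labels. Of 4 pollen tube genes, 3 had a probe set of their own and summed to 80203 and 78215 on the pollen arrays against 18.9 on the seedling array; 2 of these 3 are extensins that also stand in the pathway lists given further on. The 4 leaf genes, all measured, summed to 81.4 and 178 in pollen against 25529 in seedlings. Of 4 tapetum genes 2 were measured, summing to 23.7 and 88.0 in pollen and 3.04 in seedlings, and neither exceeded the floor in both pollen samples. Of 4 petal and pistil genes 3 were measured, summing to 203 and 188 in pollen and 139 in seedlings. NGA1, at 6.23 and 2.81 in pollen and 87.8 in seedlings, was called lower, and 0 were called higher. RBE (91.0 and 54.8 in pollen, 11.3 in seedlings) and SPT (106 and 131 in pollen, 39.6 in seedlings) were brighter in pollen. Both did not pass the test (limma adjusted p = 0.058 and 0.071). Over all probe sets that are not array controls, 14.4% were called higher and 20.6% lower. Of 4 root hair genes, which the roots of the seedlings could show, 2 were measured, and they summed to 234 and 157 in pollen against 45.6 in seedlings, with 1, EXPA7, called higher in pollen. As a sign of RNA integrity, the ubiquitin control probe sets had a ratio of 3' over 5' signal of 2.02 on pollen array 1, 2.42 on pollen array 2 and 1.59 on the seedling array. The part of these other tissues and of RNA integrity in the values below was not tested.

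The members split into genes far brighter in germinating pollen, genes brighter in seedlings and genes dim in both. With limma and Benjamini-Hochberg adjustment over all 14812 tested probe sets, ANX1, ANX2, BUPS1 and BUPS2 were higher in pollen, and FER and THE1 were lower. AT2G23200 did not pass the test. AT5G24010 and AT5G59700 did not reach the floor and were not tested. Thus 4 of the 9 measured members, 7 of them tested, were called higher and 2 lower. Over the array 3279 probe sets were called higher, which is 22.1% of the 14812 tested and 14.4% of all 22746 that are not array controls. The 4692 called lower were 31.7% of those tested and 20.6% of all. Of all calls 41.1% were higher, a share that was 53.1% with 75th percentile scaling and 11.1% with scaling by the hybridisation spikes. Over the 9 measured members the median log2 difference was -0.10, and over all 22746 probe sets that are not array controls it was 0.070. When dimmer signals were set to the floor, both medians were 0. The members were chosen with earlier results of these data known, so their counts are a description and no test.

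**Figure D1:**
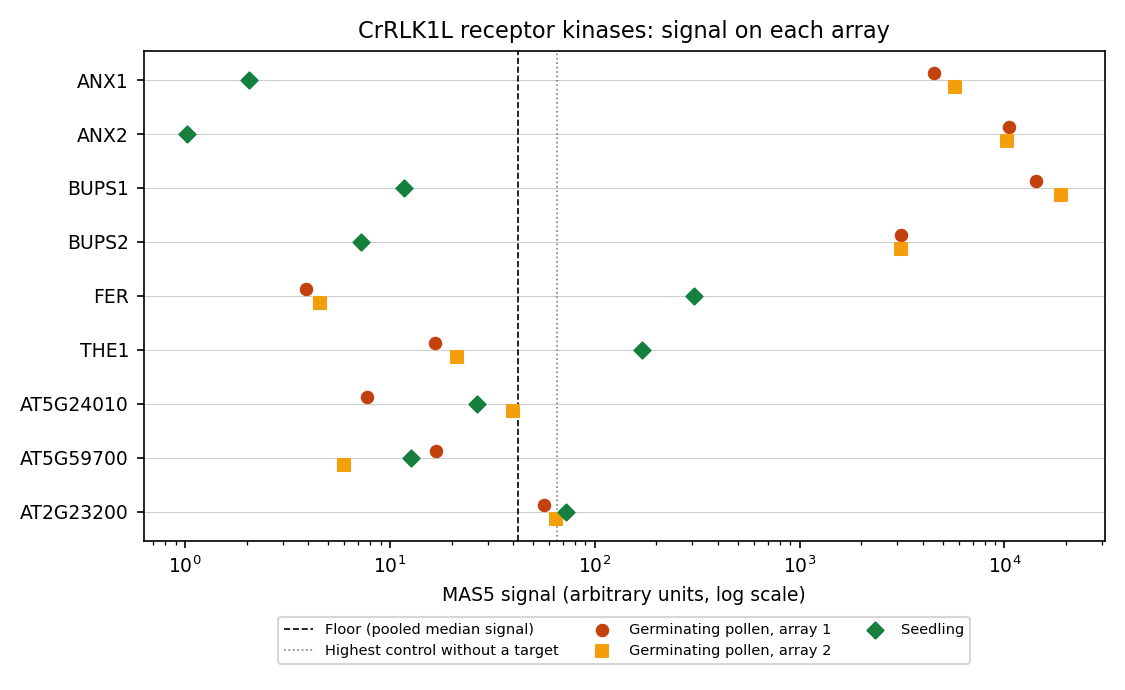
Signals of the 9 measured CrRLK1L genes on each of the 3 arrays, on a log axis. Circles and squares are the pollen arrays, diamonds the seedling array, the dashed line is the floor of 42.3 and the dotted line the brightest control without a target, 65.7. ANX1, ANX2, BUPS1 and BUPS2 lie at 3115 or above in pollen and at 11.7 or below in seedlings, while FER and THE1 lie above the lines only in seedlings.

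ANX1 and ANX2 are closely related receptor kinases of the pollen tube tip that act redundantly in holding the tube intact. ANX1 had signals of 4520 and 5759 in pollen and 2.06 in seedlings. ANX2 had 10573 and 10313 in pollen and 1.03 in seedlings. Both genes were thus bright on both pollen arrays and under the floor in seedlings. Against the floor, ANX1 was at least 121-fold higher (mean 5140 ± 876, SD, n = 2; limma adjusted p = 5.1e-05), and ANX2 was at least 247-fold higher (mean 10443 ± 184, SD, n = 2; limma adjusted p = 9.6e-06).

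BUPS1 and BUPS2 are the receptors that pair with the ANX proteins at the tube surface. BUPS1 had signals of 14197 and 18894 in pollen and 11.7 in seedlings. BUPS2 had 3135 and 3115 in pollen and 7.24 in seedlings. Again every pollen value was above the floor and every seedling value under it. BUPS1 was at least 391-fold higher (mean 16545 ± 3321, SD, n = 2; limma adjusted p = 4.3e-05), and BUPS2 was at least 73.8-fold higher (mean 3125 ± 14.4, SD, n = 2; limma adjusted p = 2.6e-05). Measured against the brightest control without a target, ANX1 was at least 78.2-fold higher, ANX2 at least 159-fold, BUPS1 at least 252-fold and BUPS2 at least 47.5-fold. The brightness of different probe sets also depends on their oligonucleotides, so these signals do not rank the receptors by abundance.

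As a size rule without a test, a probe set was counted when both pollen signals exceeded the floor and were 10 or more times as bright as the seedling array, whose signal was raised to the floor where it was under it. ANX1, ANX2, BUPS1 and BUPS2 met it, 4 of 9 measured members, where 4.24% of all 22746 probe sets did. The reverse rule took 4.95% of all probe sets and 0 of the 9 members; a seedling signal under 10 times the floor, as all members had, cannot meet it. On the log2 scale, after an offset of 14.7 was added to each signal, the fitted differences were 8.25 for ANX1, 9.37 for ANX2, 9.28 for BUPS1 and 7.16 for BUPS2. These values are no bounds and do not rank the genes, because the seedling signals are under the floor and the offset sets their size. With no offset they were 11.28, 13.31, 10.45 and 8.75, and with the offset doubled 7.35, 8.42, 8.64 and 6.42.

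**Figure D2:**
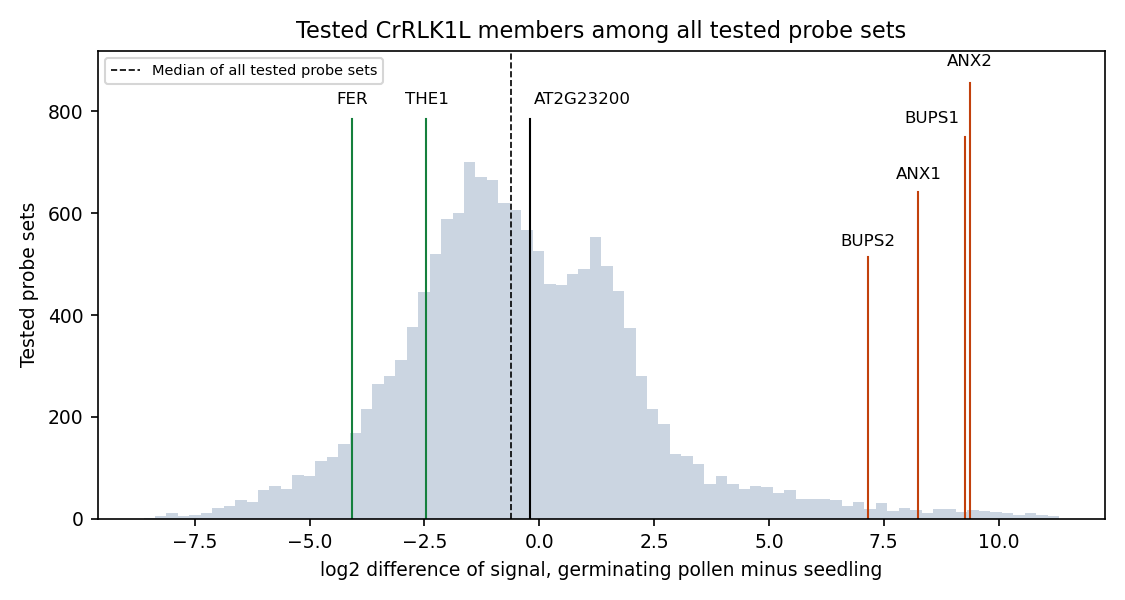
Distribution of log2 differences (germinating pollen minus seedling, offset 14.7) over the 14812 tested probe sets, as counts, with the 7 tested CrRLK1L members as vertical lines of arbitrary height. ANX1, ANX2, BUPS1 and BUPS2 stand between 7.16 and 9.37, FER at -4.08, THE1 at -2.46 and AT2G23200 at -0.21; the dashed line is the median of all, -0.61. Positions of genes under the floor in a tissue depend on the offset.

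The pollen arrays agreed closely for ANX2 and BUPS2 and less so for ANX1 and BUPS1. Between the arrays ANX2 differed 1.03-fold and BUPS2 1.01-fold, whereas ANX1 differed 1.27-fold and BUPS1 1.33-fold, both brighter on array 2. Among 1006 probe sets with a mean pollen signal above 1000, the median difference between the arrays was 1.07-fold and the 90th percentile 1.21-fold. Of these, 5.77% differed at least as much as ANX1 and 2.98% at least as much as BUPS1. The differences remain small beside the at least 121-fold and 391-fold gaps to the seedling array.

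**Figure D3:**
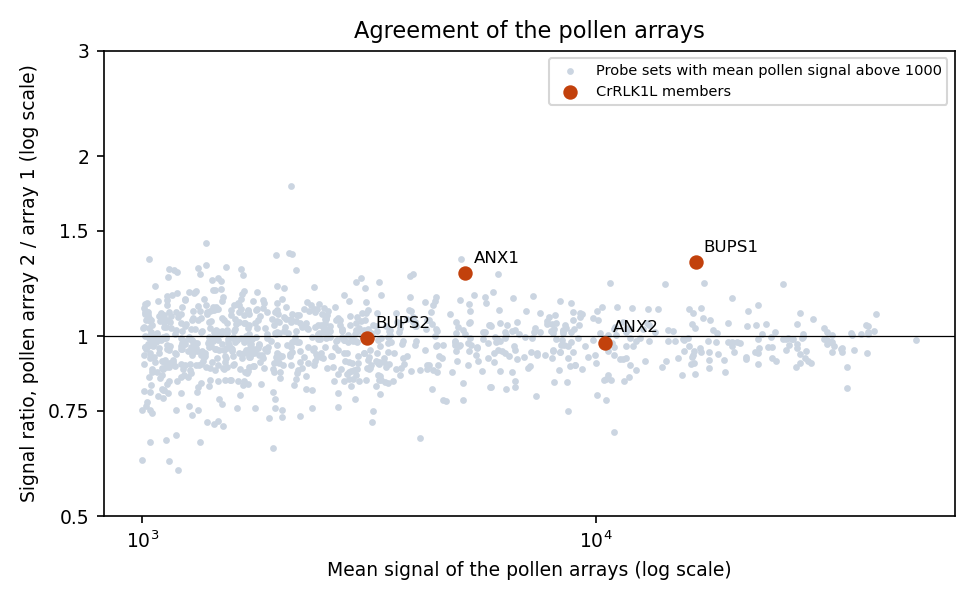
Ratio of the signals of pollen array 2 over array 1 against the mean pollen signal, both on log axes, for the 1006 probe sets above 1000 (grey) and 4 CrRLK1L members (orange). ANX2 and BUPS2 lie near a ratio of 1, and BUPS1 (1.33) and ANX1 (1.27) lie at the upper edge of the cloud.

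FER and THE1, which act in vegetative growth, showed the opposite pattern. FER, the best-known receptor of RALF peptides, had a signal of 306 in seedlings but 3.90 and 4.58 in pollen. THE1, first described as a sensor of damage to cellulose synthesis, had 16.6 and 21.4 in pollen against 170 in seedlings. For both genes the pollen arrays were under the floor and the seedling array well above every control without a target. FER was at least 7.23-fold lower in pollen (fitted log2 difference -4.08, SE 0.41, limma adjusted p = 0.0029). THE1 was at least 4.01-fold lower (fitted log2 difference -2.46, SE 0.49, limma adjusted p = 0.017), but without the filter on dim probe sets it did not pass (adjusted p = 0.053). Because the pollen signals are under the floor, the fitted values depend on the offset, with FER at -6.18 without it and -3.32 with it doubled, and THE1 at -3.17 and -2.04. Against the brightest control FER was at least 4.66-fold and THE1 at least 2.58-fold lower. The seedling value is 1 array, assumed to vary like the pollen arrays. In whole tissues, fewer cells of a type and less RNA per cell cannot be told apart.

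AT5G24010, AT5G59700 and AT2G23200 were dim in both tissues. AT2G23200 had signals of 56.4 and 64.6 in pollen and 72.2 in seedlings. Its pollen signals were near or under the brightest controls without a target, whereas its seedling signal was above all of them. Its log2 difference was -0.21 (SE 0.49, limma adjusted p = 0.73). AT5G24010 had 7.76 and 39.7 in pollen and 26.8 in seedlings. AT5G59700 had 16.8 and 5.96 in pollen and 12.6 in seedlings. For both genes no signal was above the floor on any of the 3 arrays, so their values have no order and no difference was detectable at this brightness.

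Other family genes were listed alongside the members. CVY1 (AT2G39360), known for leaf cell shape, had signals of 51.9 and 48.6 in pollen and 75.6 in seedlings and did not pass (log2 difference -0.48, limma adjusted p = 0.45). Of the MDS genes, which act in growth under metal ion stress, MDS3 (AT5G39020; 3.03 and 3.19 in pollen, 15.4 in seedlings) and MDS4 (AT5G39030; 4.57 and 52.5 in pollen, 30.3 in seedlings) were not tested. MDS1 and MDS2 share 1 probe set, with pollen signals of 22.2 and 54.5 beside 192 in seedlings; it missed the threshold (limma adjusted p = 0.054). HERK1 and HERK2 were not analysed here.

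For the 6 members called, the direction was the same under each of the 4 scalings tried. Scaled by the 18 hybridisation spike probe sets, whose mean ratio to the seedling array was 4.998 for pollen array 1 and 4.79 for pollen array 2, the median difference of all tested probe sets moved from -0.61 to -2.26. ANX1, ANX2, BUPS1 and BUPS2 then had log2 differences of 7.32, 8.59, 7.69 and 5.77 and were still called higher, while FER and THE1 had -5.85 and -4.38 and were still called lower. The 3 dim genes turned with the scaling. AT2G23200, AT5G24010 and AT5G59700 were called lower under spike scaling (log2 differences -2.19, -1.83 and -1.35), near the shift of the whole array. AT2G23200 stood at 0.078 under quantile normalisation and 0.26 under 75th percentile scaling, without passing the test.

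**Figure D4:**
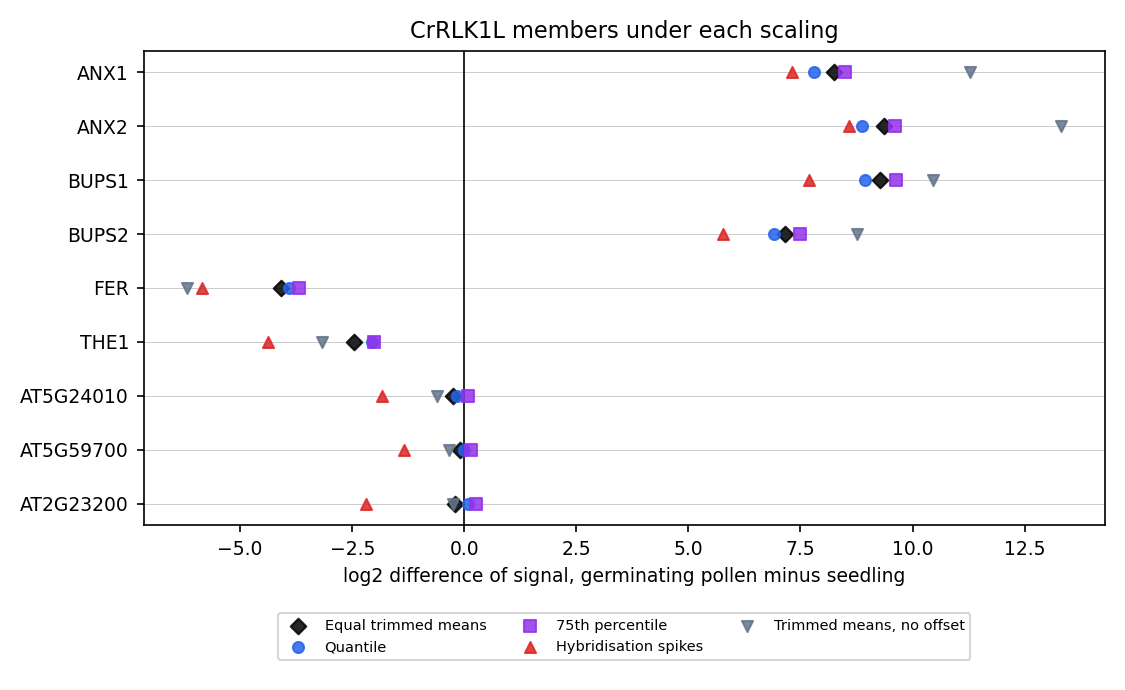
Log2 differences (germinating pollen minus seedling) of the 9 measured CrRLK1L genes under 5 settings, each point being 1 fitted value without an error bar. ANX1, ANX2, BUPS1 and BUPS2 stay right of 0 and FER and THE1 left of 0 in each, whereas the 3 dim genes lie near 0 except under spike scaling, where they reach -1.35 to -2.19.

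The genes whose pattern over the 3 arrays was most like that of BUPS1, the member with the highest pollen signal, were AT1G25240, AT2G26850 and AT2G33420. Their Euclidean distances to BUPS1 in log2 units were 0.31, 0.34 and 0.37 among 13435 single-gene probe sets. AT1G25240 had signals of 15827 and 16610 in pollen and 15.6 in seedlings. For FER, the member with the highest seedling signal, the nearest were AT2G36145, NQR (AT3G27890) and AT3G02690, at 0.035, 0.089 and 0.11. AT2G36145 had 4.18 and 4.65 in pollen and 300.2 in seedlings. With 3 arrays such likeness says only that the brightness was similar in both tissues.

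Genes of the signalling route around these receptors came from 9 lists with 89 genes, of which 18 had a probe set of their own. Of the 18, 8 were called higher in pollen, 2 lower, 2 did not pass and 6 were not tested, beside 14.4% of all probe sets called higher and 20.6% lower. Their median log2 difference was 1.26 (1.23 with signals raised to the floor), against 0.070 over all 22746 probe sets. The lists were chosen with earlier results of these data known, so these figures describe the lists and are no test. The LRE and LLG co-receptors, ROP GTPases and their exchange factors, MLO proteins and AHA proton pumps, 45 listed genes in all, were not analysed here.

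Ligands went both ways. Of 13 listed RALF peptides 4 were measured, with 2 called higher and 2 lower. Over the array, 22.1% of tested probe sets were called higher and 31.7% lower. RALF1, RALF4, RALF19, RALF22 and RALF23 were among the 9 not analysed here. RALF25 had signals of 9999 and 9216 in pollen and 5.82 in seedlings (limma adjusted p = 1.2e-05), and RALF26 had 26000 and 23671 against 8.74 (limma adjusted p = 8.9e-06). Their bounds were at least 227-fold and 587-fold higher in pollen. RALF33, a peptide that FER perceives, had pollen signals of 2.45 and 3.84 beside 444 in seedlings and was at least 10.5-fold lower (limma adjusted p = 0.0026). RALF34, a ligand of THE1, had 947 in seedlings but 19.7 and 97.1 in pollen (limma adjusted p = 0.017), so that 1 pollen array was under the floor and the other above it. RALF33 and RALF34 were thus called lower in pollen, as were FER, THE1 and 31.7% of all tested probe sets. A joint change of ligand and receptor was not tested.

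Leucine-rich repeat extensins, wall proteins that bind RALF peptides, were measured for 8 of 11 genes. LRX8, LRX9, LRX10 and LRX11, the pollen extensins, were between 8899 and 32749 on the pollen arrays and between 5.91 and 12.5 in seedlings. LRX9 was at least 763-fold higher (limma adjusted p = 8.5e-06), LRX10 at least 619-fold and LRX8 at least 577-fold. Of the other extensins, LRX4 failed the test with pollen signals of 51.0 and 65.5 beside a seedling signal of 88.9, and LRX6 and LRX7 were not tested. The pollen signals of LRX5 were 117 and 176 beside 40.3 in seedlings, and it passed narrowly (limma adjusted p = 0.048). Its call was lost without the filter and without a variance trend, and its log2 difference of 1.53 turned to -0.40 under spike scaling.

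Of the cytoplasmic kinases MRI, which acts downstream of ANX and BUPS receptors, had 3053 and 2658 in pollen and 5.05 in seedlings and was at least 67.5-fold higher (limma adjusted p = 4.4e-05). RIPK was not analysed here. The measured NADPH oxidases, enzymes that make reactive oxygen, were RBOHE, RBOHG and RBOHI. Their signals were between 3.50 and 57.0 over all arrays and none was tested. RBOHH and RBOHJ, the oxidases known from pollen tubes, were not analysed here. Among PRK receptor kinases, another family of pollen receptors, 2 of 8 were measured. The pollen signals of PRK8, 96.6 and 115, did not pass the test against its seedling signal of 41.5 (limma adjusted p = 0.11). Its result turned with the scaling. Under 75th percentile scaling PRK8 was called higher (log2 difference 1.54, limma adjusted p = 0.046), and under spike scaling its log2 difference was -0.82. PRK7 was not tested (56.8 and 16.5 against 38.1).

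**Figure D5:**
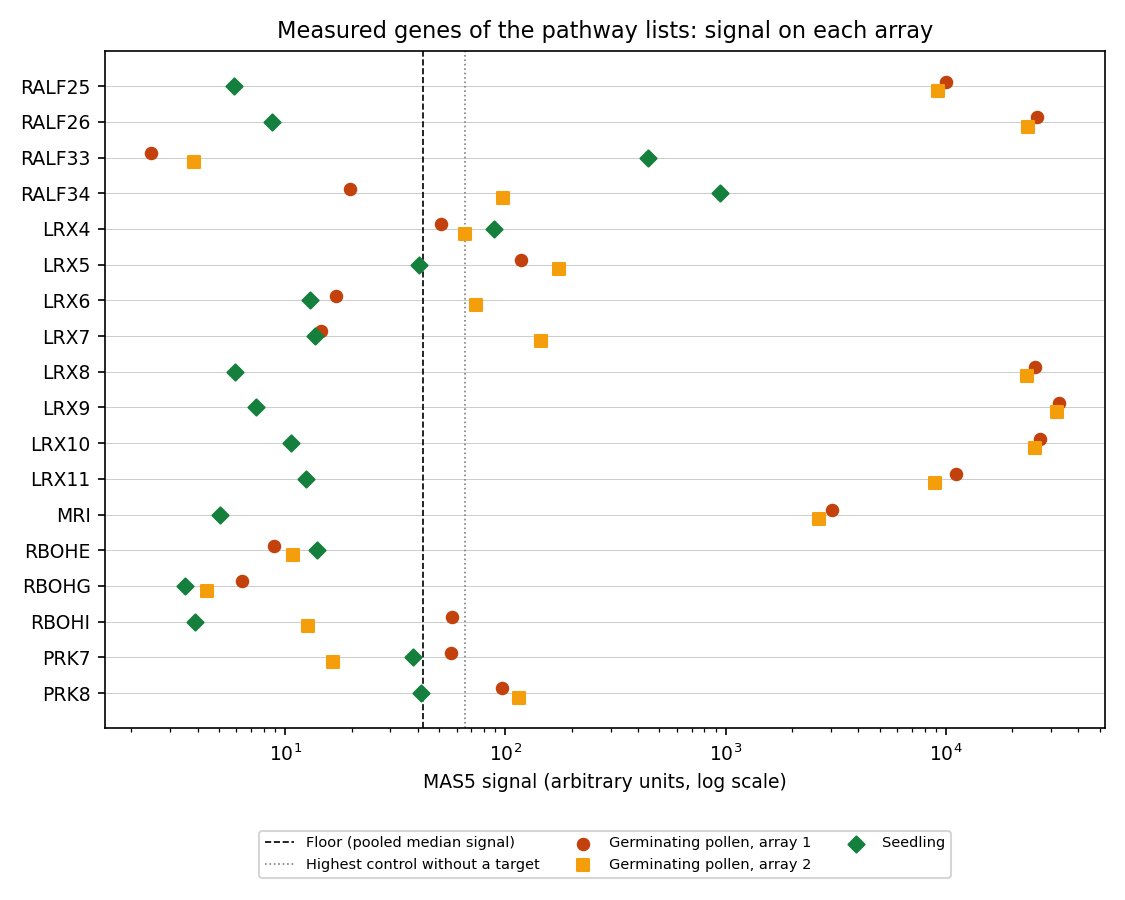
Signals of the 18 measured pathway genes on each array, on a log axis, with symbols and lines as in the plot of the receptors. RALF25, RALF26, LRX8, LRX9, LRX10, LRX11 and MRI lie at 2658 or above in pollen and at 12.5 or below in seedlings, RALF33 and RALF34 are brightest in seedlings, and the others lie at 176 or below on every array.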

How the data were processed

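Total RNA of 2 germinating pollen samples and 1 seedling sample was hybridised to Affymetrix ATH1 arrays, each labelling starting from 10 µg. The deposited values are probe set intensities that, per the submitters' processing notes, came from MAS5; its version is not given in the sources used here, and GCOS 1.2 and Excel 2004 are named in the design text. The authors had scaled the arrays, whose 2% trimmed means were all 122, to a common level, so differences are relative to the rest of an array. Scanner files and detection calls were not used here. The number of arrays, 3, limits the precision, as the fit has 1 degree of freedom left.

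The array has 22810 probe sets, 64 of them controls. The annotation gave 1 gene for 13513, several for 503 and did not list 8730; names were taken from the TAIR10.1 table, where 13436 matched by gene identifier. Signals were scaled again to equal trimmed means, raised by an offset of 14.7 (their 30th percentile) and log2 transformed. Probe sets above the floor of 42.3 on both pollen arrays or in seedlings were tested with limma 3.58.1 (R 4.3.3). The test had a variance trend, was two-sided and used an adjusted p threshold of 0.05. Before that, the code was run on simulated data in which only bright probe sets changed. That run says nothing about calls where a tissue is under the floor. Folds use arithmetic means of signals, and a fold against a tissue under the floor is a bound over the floor. The members and gene lists were chosen with earlier results of these data known. All members were named. The rule for the lists was up to 3 called genes per list and direction. After their values were seen, all measured pathway and other family genes were named instead. The 3 genes of closest pattern were named for the brightest member of each tissue. Alternatives changed the scaling, offset, filter, floor, variance trend and pollen arrays. Protein and promoter sequences were not analysed here.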

Additional observations from a re-analysis of the deposited data

How the results depend on the processing

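Without either pollen array in turn, 4 members stayed at least 10-fold higher in both cases, and the log2 differences of the 6 called members kept their sign, while AT5G24010 ranged from -0.88 to 0.39 and AT5G59700 from -0.40 to 0.20; such fits leave no residual degree of freedom and hence no test. No paired analysis was possible because the seedling group has 1 array. Spike scaling moved the counts over all probe sets from 3279 higher and 4692 lower to 1489 and 11972, and by the 10-fold rule from 965 and 1127 to 566 and 4163. It moved the members called lower from 2 to 5 (AT5G24010 at -1.83, AT5G59700 at -1.35 and AT2G23200 at -2.19 were added) and the pathway genes called lower from 2 to 5, and it turned LRX5 to -0.40, LRX6 to -0.48, LRX7 to -0.17 and PRK8 to -0.82; the cause was not tested. AT2G23200 turned to 0.078 under quantile normalisation and to 0.26 under 75th percentile scaling. Without the filter 1 member was called lower, as THE1 (-2.46) had an adjusted p of 0.053 over 22746 probe sets, the highest over its alternatives. The highest adjusted p of ANX1, ANX2, BUPS1 and BUPS2 over the alternatives was 0.0078, without a variance trend, and that of FER 0.019. Other probe sets of a member could not be tried, since each had 1. Values under the floor carry no order, which limits all folds given as bounds.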

Other observations

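The genes next to the receptors on the chromosome were looked up by their order in TAIR10.1, a choice made after the members' values were seen. None of the 18 neighbours was a family gene. Of the 8 neighbours of ANX1, ANX2, BUPS1 and BUPS2, 2 were measured and 1 was tested, too few to describe the neighbours as a group. SHL1, beside BUPS1, had 266 in seedlings and 10.0 and 49.8 in pollen (limma adjusted p = 0.042, lower), and the LEA gene beside BUPS2, AT2G21490, was at 7.27 or below on every array and was not tested. Beside THE1, which was lower in pollen, HL (AT5G54390) had 360 in seedlings and 641 and 710 in pollen, and was called higher (log2 difference 0.88, limma adjusted p = 0.0096). The neighbours on both sides of FER, AT3G51540 and AT3G51560, were under the floor on all 3 arrays and were not tested.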
